A study of Mus musculus with 10 samples.

Results

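The transcripts described here are 10 mouse genes known from the 2-cell stage embryo, Tcstv1, Tcstv3, AF067061, AF067063, Gm20767, D13Ertd608e, Usp17la, Zfp352, Tdpoz1 and Duxf3. Every probe set whose platform annotation gives exactly 1 of these symbols was taken, dim ones included, which gave 11 of the 45101 probe sets and 10 of the 18194 genes with a probe set of their own. Zfp352 has 2 probe sets and each other gene has 1, and 1 further probe set that carries several symbols was left out. The gene group was chosen from the antisense minus scrambled differences of these same arrays, so its differences are given as a description, without a test.

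The cells were BMEL cells, a bipotential line derived from the embryonic mouse liver, able to differentiate towards hepatocytes or bile duct cells. They received, by Oligofectamine transfection, a locked nucleic acid (LNA) oligonucleotide, either antisense to miR-30a (5 arrays) or scrambled (5 arrays), so that both groups carry a transfected oligonucleotide and neither is untreated. Each array measured total RNA of 1 sample in 1 colour, and the deposited values are on a log2 scale, on which 1 unit is a 2-fold difference. The labels do not say whether replicates were separate cultures, so p-values measure the spread between these samples alone, which may be technical. In bulk RNA, fewer cells that carry a transcript and less of it per cell cannot be told apart.

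When the mouse embryo reaches the 2-cell stage it starts to transcribe its own genome, and a set of genes that are silent in almost every later cell is switched on for a short time. The double homeobox transcription factor DUX, the product of Duxf3, activates many of them, and several are transcribed from promoters that derive from retrotransposons. Chromatin repressors such as TRIM28, SETDB1 and KDM1A keep the set silent later on, and in cultures of mouse embryonic stem cells a few cells at a time switch it on again.

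The microRNA that the antisense oligonucleotide is directed to is shown as its mature arms, from RefSeq (GRCm38.p6), 5′ to 3′, with the seed (bases 2 to 8), the stretch that pairs with target transcripts, in capitals. The labels do not say which arm was targeted.
mmu-miR-30a-5p, chr1:23272274-23272295, plus strand: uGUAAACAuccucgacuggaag
mmu-miR-30a-3p, chr1:23272315-23272336, plus strand: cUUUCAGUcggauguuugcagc
In the same table miR-30c, miR-30e and miR-384 carry the seed of the 5p arm as well.

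RefSeq promoter windows, from 250 bases before to 50 bases after the start of transcription, were at hand for 5 of the 10 genes, and 4 are printed 5′ to 3′ on the strand of the gene (GRCm38.p6), because their genes had high (AF067061), middle (Zfp352, Usp17la) and low (Tdpoz1) values. Capitals mark the letters CCTTTAAT and ATATAAG on either strand. These letters were picked after the windows had been read.
AF067061, chr13:120262845-120263144, plus strand: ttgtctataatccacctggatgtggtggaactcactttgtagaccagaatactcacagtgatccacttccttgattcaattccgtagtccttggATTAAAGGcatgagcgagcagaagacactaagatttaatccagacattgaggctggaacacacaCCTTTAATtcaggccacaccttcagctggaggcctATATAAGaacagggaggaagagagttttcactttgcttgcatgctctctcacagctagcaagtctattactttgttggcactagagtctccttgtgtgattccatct
Zfp352, chr4:90218570-90218869, plus strand: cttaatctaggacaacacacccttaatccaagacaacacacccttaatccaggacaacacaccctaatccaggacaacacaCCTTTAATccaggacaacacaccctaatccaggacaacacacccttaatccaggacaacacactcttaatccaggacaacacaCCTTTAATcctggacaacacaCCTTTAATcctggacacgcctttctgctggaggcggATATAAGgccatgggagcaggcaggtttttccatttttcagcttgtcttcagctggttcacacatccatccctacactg
Usp17la, chr7:104856766-104857065, plus strand: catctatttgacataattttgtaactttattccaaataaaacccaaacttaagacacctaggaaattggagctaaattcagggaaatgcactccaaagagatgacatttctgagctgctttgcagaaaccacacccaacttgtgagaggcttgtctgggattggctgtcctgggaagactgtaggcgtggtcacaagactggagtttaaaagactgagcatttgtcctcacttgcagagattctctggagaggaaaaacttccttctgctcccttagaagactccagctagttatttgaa
Tdpoz1, chr3:93676234-93676533, minus strand: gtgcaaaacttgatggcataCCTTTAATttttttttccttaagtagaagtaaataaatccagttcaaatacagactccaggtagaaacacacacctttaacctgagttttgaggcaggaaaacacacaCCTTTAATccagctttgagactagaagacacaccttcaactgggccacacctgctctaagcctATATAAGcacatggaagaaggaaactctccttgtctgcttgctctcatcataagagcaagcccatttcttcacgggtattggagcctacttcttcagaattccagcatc

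CCTTTAAT stands in the windows of AF067061, Zfp352 and Tdpoz1, 3 times in that of Zfp352, and in 1.25% of all 32851 promoter windows. ATATAAG, which holds the core of a TATA box, stands in the same 3 windows, 57, 29 and 59 bases before the start, and in 2.52% of all windows. The windows of Usp17la and Duxf3 hold neither. A motif of the kind DUX binds, TGATT and AATCA with 1 base between them, is in none of the 5 windows and in 0.0335% of all windows.

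All 11 probe sets had a lower mean in antisense arrays than in scrambled arrays. The mean over the 10 genes, each by its brighter probe set, was 4.65 ± 0.17 in antisense arrays and 5.40 ± 0.42 in scrambled arrays (log2 level, SD, n = 5 each), a difference of -0.75. The median difference over the genes was -0.72, beside 0.01 over the 12633 genes tested across the array. For 7 of the 10 genes every antisense array was below every scrambled array, beside 1.18% of the genes tested, and nothing is read from this share because the same contrast chose the genes.

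1 array stood apart for these transcripts. Scrambled replicate 5 was the highest scrambled array for 10 of the 11 probe sets, and for 7 of the 10 genes it lay more than 0.5 above the mean of the other 4 scrambled arrays. Over the 12633 genes tested, 46 (0.364%) had such a gap upwards in this array, 6 of them among the genes described here, and 6 genes had one downwards. Each difference is therefore given with and without this array. Without it the mean over the 10 genes differed by -0.57 between the groups, and no gene changed direction.

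**Figure D1:**
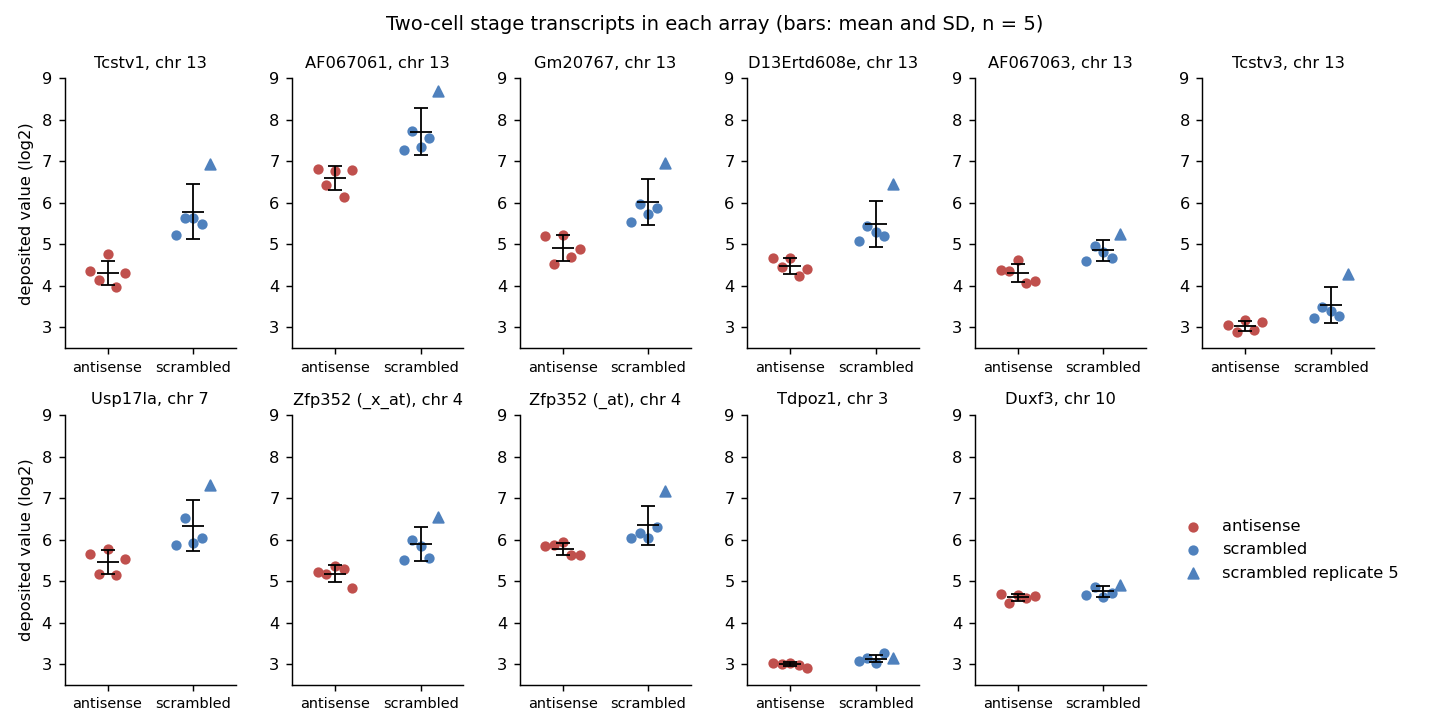
Deposited log2 value of each probe set (vertical axis, the same range in every panel) in the 5 antisense arrays (red, left) and the 5 scrambled arrays (blue, right), with the group mean and SD as bars and scrambled replicate 5 as a triangle. The antisense points of Tcstv1 lie between 3.98 and 4.77, below all scrambled points (5.23 to 6.94), while those of Tdpoz1 and Duxf3 overlap with the scrambled points.

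Of the 10 genes, 6 lie together on chromosome 13: AF067063, D13Ertd608e, Tcstv1, Gm20767, AF067061 and Tcstv3, in this order. Tcstv1 and Tcstv3 are named as 2-cell stage genes of a variable group and have been linked in mouse embryonic stem cells to the maintenance of telomeres. In the RefSeq gene table (GRCm38.p6) the stretch from AF067063 to Tcstv3 holds 31 genes and pseudogenes, and no gene follows Tcstv3 on the chromosome. Genes of such a cluster can be near-identical copies, and the probe sequences were not used here, so signal of one copy on the probe set of another was not tested. The probe set of AF067061 ends in _x_at and that of D13Ertd608e in _s_at, marks by which the maker denotes probes that can also bind other transcripts.

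Tcstv1 had the largest difference of the group in the deposited values. Its values were 4.36, 4.14, 4.77, 3.98 and 4.31 in antisense replicates 1 to 5, against 5.23, 5.64, 5.64, 5.50 and 6.94 in scrambled replicates 1 to 5. The highest antisense array lay 0.46 below the lowest scrambled array. The means were 4.31 ± 0.30 in antisense arrays and 5.79 ± 0.66 in scrambled arrays (SD, n = 5 each), and the difference was -1.48 (SE 0.25). Without scrambled replicate 5 it was -1.19 (SE 0.14). The antisense mean lay at a dim level, above that of only 36.0% of probe sets, and whether it stood above background was not tested, so no fold is given.

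AF067061, a protein-coding gene of the same cluster, was the brightest of the group. Its values were 6.82, 6.43, 6.76, 6.15 and 6.78 in antisense arrays, against 7.28, 7.73, 7.34, 7.56 and 8.70 in scrambled arrays. The groups were 0.46 apart at their nearest arrays, about as far as for Tcstv1. The difference was -1.13 (SE 0.23), and -0.88 (SE 0.14) without scrambled replicate 5. Since its mean lay above 72.0% of all probe sets, this difference was measured well above the dim end of the scale.

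Gm20767, another protein-coding gene of the cluster, had values of 5.21, 4.52, 5.22, 4.70 and 4.89 in antisense arrays, against 5.53, 5.96, 5.74, 5.87 and 6.96 in scrambled arrays. Its difference was -1.10 (SE 0.22), and -0.87 (SE 0.14) without scrambled replicate 5. D13Ertd608e, which RefSeq lists as an RNA without a coding sequence, had values of 4.68, 4.45, 4.67, 4.23 and 4.40 in antisense arrays, against 5.07, 5.45, 5.30, 5.20 and 6.45 in scrambled arrays. Its groups did not overlap either, and scrambled replicate 5 was again on its own at the top. The difference was -1.01 (SE 0.21), and -0.77 (SE 0.099) without that array.

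AF067063 and Tcstv3, the dimmest of the cluster, had smaller differences. AF067063 had values of 4.38, 4.36, 4.63, 4.08 and 4.12 in antisense arrays, against 4.61, 4.96, 4.82, 4.67 and 5.25 in scrambled arrays. Antisense replicate 3 and scrambled replicate 1 overlapped by 0.015, and the difference was -0.55 (SE 0.12), or -0.45 (SE 0.11) without scrambled replicate 5. Tcstv3 had values of 3.05, 2.89, 3.17, 2.95 and 3.12 in antisense arrays, against 3.23, 3.48, 3.40, 3.27 and 4.30 in scrambled arrays. All its antisense arrays were below all its scrambled arrays, but the nearest were only 0.069 apart. The difference of -0.50 (SE 0.16) shrank to -0.31 (SE 0.072) without scrambled replicate 5, a change of over 1.5 times that rests on this array.

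The mean over the 6 chromosome 13 genes was 4.75, 4.47, 4.87, 4.35 and 4.60 in antisense arrays, against 5.16, 5.54, 5.37, 5.34 and 6.43 in scrambled arrays. Their median difference was -1.06, beside -0.35 for the 4 genes on other chromosomes. Tcstv3 and Tdpoz1 were dimmer than the 40th percentile of probe sets (4.56), as did the antisense means of Tcstv1, AF067063 and D13Ertd608e. How much of the unequal size of the differences follows from brightness was not tested.

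The other measured genes around the cluster gave no comparable difference. BC147527, which lies between AF067061 and Tcstv3 in RefSeq and is the only other gene of the stretch with a probe set of its own, was at 2.54 ± 0.14 in antisense arrays and 2.51 ± 0.047 in scrambled arrays (SD, n = 5 each), brighter than only 2.03% of probe sets. Of the 8 nearest genes before the cluster with a probe set, 5 were bright enough to be tested and none passed (limma with Benjamini-Hochberg adjustment over 12633 genes, smallest adjusted p = 0.285), although Tmem267 and Ccl28 had an unadjusted p of 0.0239 and 0.028. The differences of the 8 lay between -0.21 (Tmem267, 7.77 ± 0.14 in antisense arrays and 7.98 ± 0.17 in scrambled arrays) and 0.15 (Gm46390). Zfp131, a zinc finger gene, was at 9.68 and 9.74, and Hmgcs1, a cholesterol synthesis enzyme gene, at 12.16 and 12.27 in antisense and scrambled arrays.

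**Figure D2:**
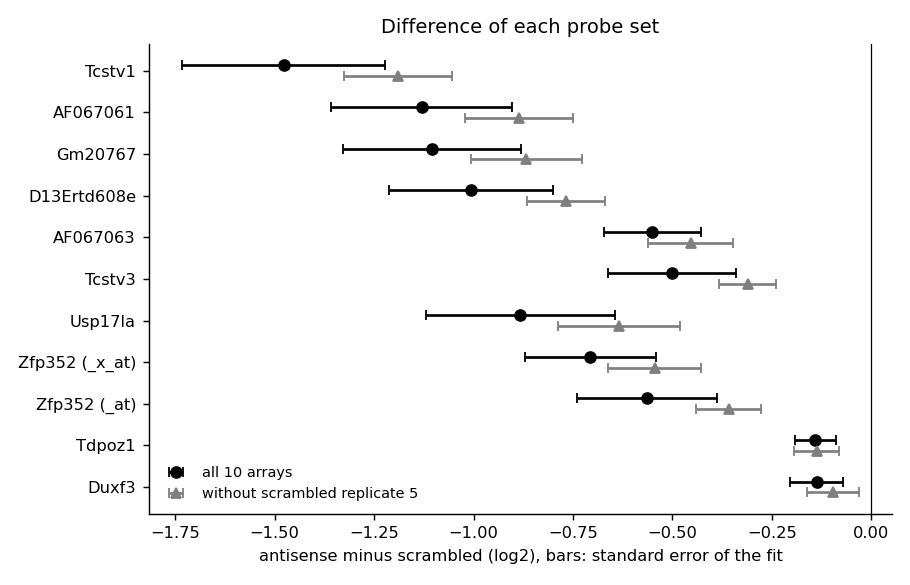
Difference of each probe set, antisense minus scrambled (horizontal axis, log2), from the fit to all 10 arrays (black circles) and without scrambled replicate 5 (grey triangles), with the standard error of the fit as bars. The 6 chromosome 13 genes are at the top, from Tcstv1 at -1.48 to Tcstv3 at -0.50, and Duxf3 is the nearest to 0 at -0.14.

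Usp17la, also known as Dub1, lies on chromosome 7 and encodes a deubiquitinating enzyme of the USP17 family. Its values were 5.66, 5.16, 5.77, 5.14 and 5.54 in antisense arrays, against 5.88, 6.53, 5.91, 6.04 and 7.33 in scrambled arrays. The groups did not overlap, by a margin of 0.11, and scrambled replicate 5 was at the top of its group. The means were 5.45 ± 0.29 in antisense arrays and 6.34 ± 0.61 in scrambled arrays (SD, n = 5 each), with a difference of -0.88 (SE 0.24) and of -0.63 (SE 0.15) without scrambled replicate 5.

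Zfp352, a zinc finger gene on chromosome 4, is the only one of the group with 2 probe sets, and both were lower in every antisense array than in any scrambled array. The brighter probe set had values of 5.84, 5.86, 5.95, 5.63 and 5.62 in antisense arrays, against 6.04, 6.16, 6.03, 6.31 and 7.16 in scrambled arrays. The dimmer one, marked _x_at, had values of 5.22, 5.18, 5.37, 5.30 and 4.84 in antisense arrays, against 5.50, 5.99, 5.85, 5.56 and 6.53 in scrambled arrays. Their differences were -0.56 (SE 0.18) and -0.71 (SE 0.16), so the probe sets gave the same direction and a similar size. Without scrambled replicate 5 they were -0.36 (SE 0.082) and -0.54 (SE 0.12), and for the brighter probe set this is a change of over 1.5 times.

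Duxf3, the gene of the activator DUX itself, lies on chromosome 10 and differed little. It had values of 4.69, 4.48, 4.67, 4.58 and 4.65 in antisense arrays, against 4.67, 4.86, 4.61, 4.70 and 4.91 in scrambled arrays. The groups overlapped, and in only 3 of the 5 same-numbered pairs was the antisense array the lower one. The difference was -0.14 (SE 0.067), and -0.10 (SE 0.064) without scrambled replicate 5. The mean of Duxf3 over all arrays was dim at 4.68, above that of only 41.9% of probe sets. Whether it stood above background was not tested, so a small difference says little about the gene.

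Tdpoz1, a chromosome 3 gene for a protein with a TRAF-like and a BTB/POZ domain, was the dimmest of the group, with a mean over all arrays above that of only 11.4% of probe sets. Its values were 3.03, 3.00, 3.03, 2.99 and 2.91 in antisense arrays, against 3.08, 3.14, 3.03, 3.26 and 3.15 in scrambled arrays. The highest antisense and the lowest scrambled value were equal. With a difference of -0.14 (SE 0.052), and of the same size without scrambled replicate 5, it is the only one of the group for which that array was not the highest, scrambled replicate 4 being higher.

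Ordered by size of difference, the genes ran Tcstv1, AF067061, Gm20767, D13Ertd608e, Usp17la, Zfp352, AF067063, Tcstv3, Tdpoz1 and Duxf3. Because the genes share their arrays, neighbours were set against each other array by array. Tcstv1 and AF067061 differed by -0.35 (SE 0.12), Usp17la and Zfp352 by -0.32 (SE 0.17), and Tcstv3 and Tdpoz1 by -0.36 (SE 0.20). Without scrambled replicate 5 these gaps were -0.30 (SE 0.13), -0.28 (SE 0.18) and -0.17 (SE 0.098). The gaps of the other 6 pairs of neighbours lay between -0.12 and -0.0047, with an SE of 0.070 to 0.14, so their order is not clear beyond the spread between arrays. Given their SE, the order of Usp17la and Zfp352 and that of Tcstv3 and Tdpoz1 are not clear either. Zfp352 stands here with its brighter probe set (-0.56), while its other probe set was at -0.71.

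The transcripts also varied together between replicates of the same treatment. The choice of the genes used the differences between the groups, to which scrambled replicate 5 contributes. The co-variation is therefore not wholly apart from that choice. For each pair of genes, the deviations from the group means were correlated over the 10 arrays. All 45 correlations were above 0, with a median Pearson's r of 0.86 and a range of 0.043 to 0.97, and a median Spearman's rho of 0.76. Over all 79790028 pairs of the 12633 genes tested the median was 0.01, and 0.493% of these pairs reached 0.86. All points come from the same arrays, so the genes share library and hybridisation, and no p is given.

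This co-variation rests in part on scrambled replicate 5. Without it the median r over the 45 pairs was 0.67, with 44 of 45 above 0, and 5.73% of all pairs of genes reached that value. Leaving out antisense replicate 3 as well, the array next farthest from the median, gave a median of 0.56. Within the 5 antisense arrays alone, which do not hold scrambled replicate 5, the median was 0.72, with 44 of 45 pairs above 0. Within the 5 scrambled arrays it was 0.93. The share of all pairs of genes that reach these values was not computed for either group alone.

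Among the 6 chromosome 13 genes the 15 correlations ran from 0.75 (Tcstv3 with AF067063) to 0.97 (Tcstv1 with D13Ertd608e), with a median of 0.93, and from 0.54 to 0.90 without scrambled replicate 5. Genes on different chromosomes varied together as well. Usp17la on chromosome 7 had an r of 0.97 with AF067061 and of 0.90 with Duxf3 on chromosome 10, and without scrambled replicate 5 these were 0.89 and 0.91. Duxf3, whose mean hardly differed between the treatments, thus had an r of 0.60 to 0.90 with every gene of the group but Tdpoz1 (0.30), and of 0.21 to 0.91 without scrambled replicate 5.

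The correlations of Zfp352 with the cluster depended more on 1 array. They ran from 0.77 (AF067063) to 0.93 (D13Ertd608e) over 10 arrays and from 0.05 (Tcstv3) to 0.63 (AF067063) without scrambled replicate 5. Tdpoz1, near the dim end of the scale, had an r of 0.04 to 0.40 with the others over 10 arrays. Its highest value without scrambled replicate 5 was 0.84, with Zfp352.

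Array by array, the mean deviation of the 8 genes that reached the level of 4.56 was 0.15, -0.13, 0.25, -0.25 and -0.02 in antisense replicates 1 to 5, against -0.37, -0.002, -0.24, -0.18 and 0.80 in scrambled replicates 1 to 5. The level applies to the mean over all arrays. Tcstv1, AF067063 and D13Ertd608e had antisense means below it (4.31, 4.31 and 4.49) and reached it only through their scrambled arrays. Antisense replicate 3 was the highest antisense array for 8 of the 11 probe sets, and scrambled replicate 1 was the lowest scrambled array for 8. The top of the scrambled arrays was set by replicate 5 alone, and the other 4 lay between -0.37 and -0.002. The 5 antisense arrays lay between -0.25 and 0.25.

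**Figure D3:**
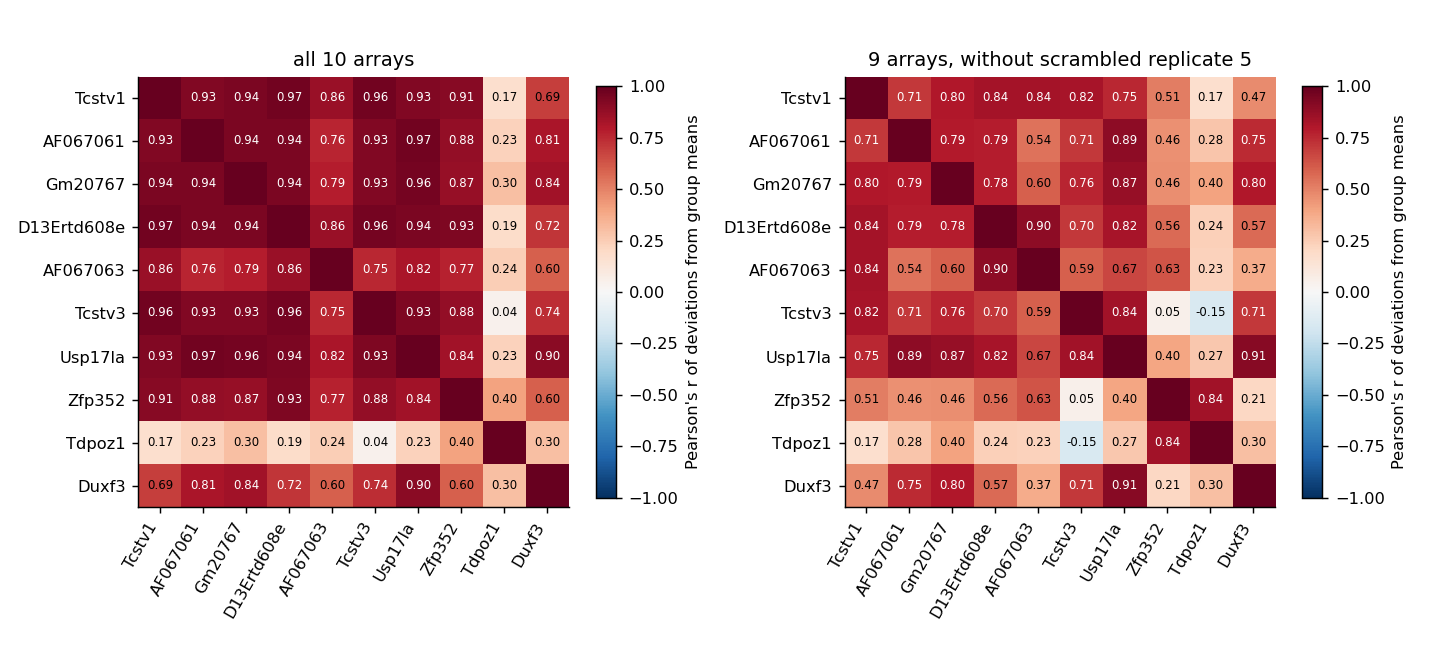
Pearson's r between the 10 genes (brighter probe set of Zfp352), from deviations from the group means over all 10 arrays (left) and over 9 arrays without scrambled replicate 5 (right), with colour from -1 (blue) to 1 (red). The block of chromosome 13 genes and Usp17la lies between 0.75 and 0.97 on the left and between 0.54 and 0.90 on the right, the row of Zfp352 is paler on the right, and Tdpoz1 is pale in both panels apart from its pair with Zfp352 at 0.84 on the right.

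The 6 other genes most like the group were found by the correlation of their deviations with the mean deviation of those 8 genes over the 10 arrays, among 12625 candidates. They were Spint1 (r = 0.93), which encodes a protease inhibitor of epithelia, Steap4 (0.90), a metalloreductase gene, Celsr3 (0.89), a cadherin gene, E530011L22Rik (0.89), Btnl2 (0.89), a butyrophilin-like gene, and Sema4f (0.88), a semaphorin gene. Only Spint1 reached 0.9. Without scrambled replicate 5 these correlations lay between 0.37 (E530011L22Rik) and 0.74 (Btnl2). None of the 6 passed the test between the treatments, with changes from -0.16 (Celsr3) to 0.03 (Btnl2) and limma adjusted p-values of 0.26 to 0.968, although Celsr3 had an unadjusted p of 0.0192. No gene of the lists of repressors or activators of the 2-cell program was among them. The other cleavage-stage transcripts described next could not appear, as none was bright enough to be a candidate.

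Other transcripts of the cleavage-stage embryo were at the dim end of the scale in both groups. Of 45 such genes listed, 12 had a probe set of their own and none reached the level for testing, so none could be called. Their mean levels ran from 2.52 to 4.35, and the list mean was 3.52 to 3.59 in antisense arrays and 3.58 to 3.64 in scrambled arrays. The median difference of the 12 was -0.001, with 6 of 12 below 0. The largest were those of Ubtfl1, a gene related to the nucleolar factor UBTF, at 2.85 ± 0.14 in antisense arrays and 3.12 ± 0.18 in scrambled arrays, and of C87414, at 3.26 ± 0.13 and 3.50 ± 0.20 (SD, n = 5 each). Both overlapped between the groups. These names were chosen after their values were seen, as were Obox3, Obox5 and Obox6, homeobox genes of oocyte and early embryo, whose differences lay between -0.03 and 0.02. The Zscan4 genes, the best known markers of the 2-cell state, were among the 45 listed. They had no probe set of their own, so they could not be analysed here.

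Genes for repressors of the 2-cell program had mean levels of 4.05 to 12.54, and none passed the test in the fit without a replicate block. Of 31 with a probe set 30 were tested, with a median change of -0.01, and 2 had an unadjusted p under 0.05: Max (0.40, SE 0.14, limma adjusted p = 0.215) and Rif1 (-0.12, SE 0.047, adjusted p = 0.286). For Rif1 this rests on 1 probe set, as its 2 other probe sets over the level of 4.56 were at 0.0029 and -0.010, and the mean of its probe sets was at -0.05 (unadjusted p = 0.327). Max, a partner of the repressor MGA, was at 6.75 ± 0.22 in antisense arrays and 6.35 ± 0.31 in scrambled arrays, and with the replicate block it rose (adjusted p = 0.0249). Kdm1a, a histone demethylase gene, was at -0.08 and Ncl, which encodes nucleolin, at -0.07 (adjusted p = 0.489 and 0.467). Trim28 was at 11.02 ± 0.052 in antisense arrays and 11.06 ± 0.042 in scrambled arrays, and Setdb1 at 7.80 ± 0.028 and 7.79 ± 0.063 (SD, n = 5 each). The share of all genes tested with an unadjusted limma p under 0.05 is not given here. Nothing is therefore read from counts of such genes in this list or the lists below.

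Of 12 tested genes for activators of the 2-cell program, 1 rose and none fell, beside 1.53% of all genes tested that passed in either direction. Rarg, a retinoic acid receptor gene, was at 8.44 ± 0.039 in antisense arrays and 8.27 ± 0.039 in scrambled arrays (SD, n = 5 each), a change of 0.17 (SE 0.037, adjusted p = 0.0402). This call is borderline, as it missed the threshold with the replicate block (adjusted p = 0.0526) and with any array left out other than antisense replicate 1 or scrambled replicate 5 (adjusted p up to 0.115). Before adjustment 4 of the 12 had a limma p under 0.05, a count given without the share over all genes. Besides Rarg these were Gata2 (0.00881), Ep300 (0.0102) and Usp7 (0.0384), each lower in antisense arrays by its brightest probe set. Gata2, a zinc finger transcription factor gene, was at -0.22 (SE 0.070, adjusted p = 0.18), the acetyltransferase gene Ep300 at -0.11 (adjusted p = 0.195) and Usp7 at -0.09 (adjusted p = 0.348). The 7 probe sets of Usp7 ran from -0.10 to 0.07, 4 of them above 0, and their mean was at -0.0051. Dppa4 was at -0.06, and Dppa2, its partner upstream of Duxf3, was too dim to be tested (3.95 ± 0.11 in antisense arrays and 3.99 ± 0.087 in scrambled arrays).

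Markers of pluripotent cells and of oocytes were examined beside these transcripts. Of the pluripotent cell markers the defining genes Pou5f1, Nanog and Sox2 were at 3.98, 2.78 and 2.41 in antisense arrays and at 4.06, 2.92 and 2.37 in scrambled arrays, brighter than only 30.7%, 6.99% and 0.808% of probe sets. Of the 13 markers, 6 were bright enough to be tested. Besides Klf4 these were Tfcp2l1, Utf1, Esrrb, Fgf4 and Dppa5a, brighter than 69.6%, 69.0%, 61.4%, 55.8% and 54.3% of probe sets. The mean of the 13 markers was 4.93 to 5.00 in antisense arrays and 4.99 to 5.09 in scrambled arrays. Of 6 tested, 1 fell: Klf4, a transcription factor gene that epithelia also express, at 10.48 ± 0.093 in antisense arrays and 10.80 ± 0.14 in scrambled arrays (change -0.32, SE 0.068, adjusted p = 0.0361). It missed the threshold with any array left out other than scrambled replicate 2, with adjusted p up to 0.0947. Tfcp2l1 was at -0.24 (adjusted p = 0.0506), Utf1 at 0.04 and Esrrb at 0.03 (adjusted p = 0.784 and 0.947). Of 17 oocyte markers, 12 were too dim to be tested and none of the other 5 passed, with 2 of them at an unadjusted p under 0.05, Khdc3 (0.12, adjusted p = 0.312) and H1f8 (-0.19, adjusted p = 0.364), and with Zar1 at 0.07 and Gdf9 at -0.03. The mean of the oocyte list was 4.21 to 4.32 in antisense arrays and 4.23 to 4.32 in scrambled arrays. The part of such cells in the differences of the 2-cell stage transcripts was not tested.

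Markers of the liver line were examined as a check of the labelled cells. The keratin genes Krt8, Krt18 and Krt19 were at 13.76, 13.70 and 13.48 in antisense arrays and at 13.77, 13.72 and 13.49 in scrambled arrays, and Hnf4a, a hepatocyte transcription factor gene, at 10.67 and 10.69, while albumin, Alb, was dim at 4.70 and 4.73. None of 11 tested passed without the block, with 2 at an unadjusted p under 0.05. The plasma carrier gene Ttr had a change of -1.17 (SE 0.27, adjusted p = 0.0574, or 0.000812 with the replicate block), with 7.91, 6.74, 7.57, 7.58 and 8.30 in antisense arrays and 8.87, 8.24, 8.54, 8.68 and 9.60 in scrambled arrays, so that the groups overlapped. Sox9 was at 0.17 (adjusted p = 0.0662), Afp at 0.10 and Foxa1 at -0.09 (adjusted p = 0.481 and 0.441). Scrambled replicate 5 was the highest array for Ttr as well. None of 5 tested mesenchymal markers passed, nor had any an unadjusted p under 0.05, and the 4 with the smallest p were Acta2 (0.06), Col1a2 (-0.08), Dcn (-0.02) and Des (0.01), with limma adjusted p from 0.71 to 0.949.

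**Figure D4:**
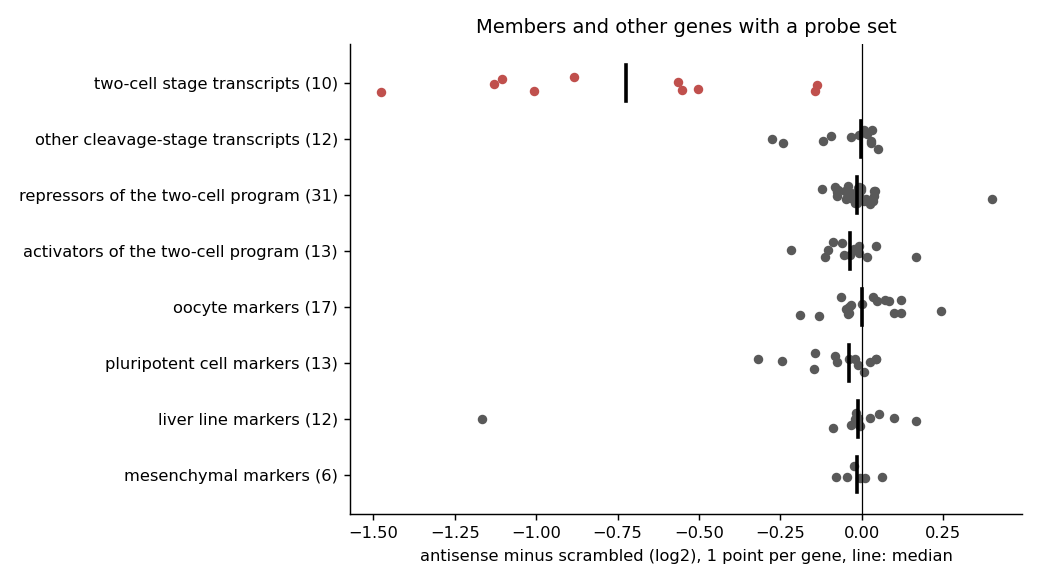
Antisense minus scrambled difference (horizontal axis, log2) of each gene, for the 10 genes described here (red, top) and for 7 lists of related genes and cell markers with a probe set (grey), with the median of each row as a line. The red points lie between -1.48 and -0.14 with a median of -0.72, and the medians of the grey rows lie between -0.04 and 0.0015, with Ttr at -1.17 the lowest single grey point.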

How the data were processed

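Total RNA of 10 samples was amplified with MessageAmp Premier and labelled with biotin, per the labels' protocols, and hybridised in 1 colour. The authors deposited a log2 value for each probe set on each array. The log2 scale was inferred from the range (highest 14.2). How the authors summarised and normalized probes is not given in the sources used here. Medians of the arrays were 5.21 to 5.24, and values were used as deposited. Groups and replicate numbers come from the titles.

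The platform annotation gives 1 symbol for 34945 probe sets. Differences and standard errors of the genes described come from limma 3.58.1 (R 4.3.3; lmFit and eBayes, checked on simulated data) over all probe sets that are not controls, without a filter. For lists, the brightest probe set of each gene was tested where its mean reached the 40th percentile (4.559), which gave 12633 genes, two-sided, with Benjamini-Hochberg adjustment and a threshold of 0.05. The members, the lists and the tests were chosen with earlier results of these data known, and the chromosome 13 neighbours and promoter letters after the values were seen. Named from each list are the 4 tested genes with the smallest p. Named as most alike are the 6 genes with the highest correlation. Figures used matplotlib 3.10.9 in Python 3.11.15. The number of arrays limits the precision.

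Both groups carry the numbers 1 to 5. The correlation between same-numbered arrays, taken on deviations from group means, was 0.172, 0.377, 0.112, 0.152 and 0.335 over the genes tested, each over 0.1. Correlations between arrays with different numbers are not given beside them, so these values do not settle whether the numbers mark pairs. The labels give no shared origin, and the main fit, without a replicate block, does not pair the arrays. A fit with the replicate block is an alternative, beside quantile normalization, median centring, other filters on dim probe sets, the mean of a gene's probe sets, and leaving out each array.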

Additional observations from a re-analysis of the deposited data

Results flagged for a closer look

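Within each group of 5 arrays, a value was marked when its gap to the next array exceeded 0.71 of the range of the group. Of 82 groups of values examined (41 features), 9 were marked, where chance marks about 1 in 20. Of these, 8 were the value of scrambled replicate 5 at the top of its group. They were Tcstv1 (6.94, gap 0.76 of the range), Zfp352 with its brighter probe set (7.16, 0.75), D13Ertd608e (6.45, 0.73) and Tcstv3 (4.30, 0.77). The others at the top were Spint1 (5.69, 0.78), Steap4 (5.31, 0.81), Celsr3 (5.11, 0.74) and Sema4f (6.01, 0.74), which had been picked for their likeness to the 2-cell stage transcripts over these arrays. The remaining one was Foxa1, whose antisense replicate 4 was the lowest at 7.65 (gap 0.72 of the range). The features share the arrays, so the 8 marks on scrambled replicate 5 are not independent of each other. What sets this sample apart was not tested.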

How the results depend on the processing

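The median difference of the 11 probe sets was -0.71, and it was -0.71 with the replicate block, -0.72 after quantile normalization, -0.71 with median centring and -0.80 to -0.54 with 1 array left out. All 11 differences stayed below 0 under each of these settings. With equal groups the replicate block cannot change a difference, only its standard error. Median centring moves every difference by the same small amount. These 2 settings were therefore no check of the direction. The number of genes without overlap between the groups, 7, was 7 to 9 with 1 array left out, 8 with median centring and 7 under the other settings. This count could not fall when an array was left out, and the replicate block leaves the values unchanged. Of the 12633 genes tested, 149 had antisense arrays lower without overlap, 153 with median centring and 181 to 257 with 1 array left out. The median correlation of 0.86 was 0.67 to 0.89 with 1 array left out and 0.56 without the 2 arrays farthest from the median, a setting chosen after seeing the data. It was 0.90 with the replicate block, where the arrays of a pair mirror each other and the number of free values is lower. Across the array, 193 genes passed, 385 with the replicate block and 92 to 201 with 1 array left out, with 95, 92, 123 and 101 without antisense replicate 3, 4 or 5 or scrambled replicate 3. Among the activators 1 gene, Rarg, passed, and 0 passed with the replicate block, quantile normalization, median centring, no filter or the mean of probe sets, or 0 to 1 with 1 array left out. Among the repressors 1 passed with the replicate block, Max. Among the pluripotent markers the count of 1 was 2 after quantile normalization and with the 60th percentile filter, where Tfcp2l1 joined Klf4, 0 without a filter, and 0 to 1 with 1 array left out. Among the liver markers the count of 0 was 1 with the replicate block (Ttr), 2 with the 60th percentile filter (Ttr and Sox9), and 0 to 1 with 1 array left out. The causes of these moves were not tested. Dim probe sets limit what can be said of Tcstv3, Tdpoz1, Duxf3 and the other cleavage-stage transcripts.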
